A study of Homo sapiens with 12 samples.

Results

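NRF2 is the transcription factor that switches on antioxidant and detoxification genes when a cell meets oxidants or electrophiles. In resting cells KEAP1 binds NRF2 and hands it to a CUL3 ubiquitin ligase for degradation, and oxidation of KEAP1 cysteines lets NRF2 accumulate, pair with a small MAF protein and bind antioxidant response elements. BACH1 occupies the same elements as a repressor and gives way to NRF2 at genes such as HMOX1, and liver cells rely on this system to clear drugs and reactive oxygen species. The genes described here are NFE2L2, which encodes NRF2, and 8 genes widely used as its readouts: GCLM, GCLC, SLC7A11, TXNRD1, SRXN1, ME1, HMOX1 and OSGIN1. They were taken by gene symbol, 9 of the 63677 genes in the count table.

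The genes were followed in 12 samples of Huh7, a human hepatocellular carcinoma cell line, in 4 groups of 3. One group was untreated, and the others were exposed for 6 h to graphene oxide (GO) flakes at 400 µg/mL, to GO-Rg3 at 400 µg/mL or to GO-Rg3-DOX at 100 µg/mL. Rg3 is a ginseng saponin bound to the flakes by ester links, and DOX is doxorubicin, an anthracycline drug that intercalates into DNA, loaded onto GO-Rg3; cells given free DOX are not analysed here. GO-Rg3-DOX was given at another dose than GO-Rg3, so those groups are not compared with each other, and nothing in the labels says that the samples of a group came from separate cultures, so the tests measure the spread between these samples.

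Levels are given in CPM, read counts scaled to a common library size by the TMM method, and differences are log2 fold changes from edgeR's quasi-likelihood test with p-values adjusted by the Benjamini-Hochberg method over all 17092 genes tested. A gene is said to have risen or fallen when its adjusted p was below 0.01, and to have passed the fold threshold when its log2 fold change was also above 1 in size. Libraries held 27802871 to 38877420 counts. Mitochondrially encoded genes took 5.31% to 6.28% of the counts in untreated samples, 12.1% to 24.1% after GO, 6.89% to 7.42% after GO-Rg3 and 12.8% to 19.4% after GO-Rg3-DOX. The library of GO replicate 1 stood apart, with 24.1%. GO-Rg3-DOX replicate 1 was apart from its group as well, at 19.4% beside 13.9% and 12.8% in replicates 2 and 3. All 10 hepatocyte markers examined, ALB and AFP among them, were at 158 CPM or more in every sample, whereas 9 of 12 markers of blood, endothelial and fibroblast cells stayed under 1 CPM in every sample. The exceptions were PDGFRB, CD14 and COL3A1, which reached at most 8.57, 3.51 and 2.59 CPM. In bulk RNA such as this, fewer cells expressing a gene and less of its RNA per cell cannot be told apart.

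Antioxidant response elements share the core TGACNNNGC, where N is any base. The core was searched on both strands of promoter windows that run from 250 bases before to 50 bases after the start of a gene, taken from RefSeq on GRCh38.p14. Of 35116 windows, 4687 held it (13.3%). The table had 9 windows for 7 of the members, and 4 of these windows, belonging to GCLM, TXNRD1 and ME1, held the core. The windows of GCLC, SRXN1, OSGIN1 and NFE2L2 did not contain these letters, and HMOX1 and SLC7A11 had no entry. The copies upstream of the start are shown because they are the matches found in the members' own promoters; further copies downstream of the start, in the first TXNRD1 window and the ME1 window, are left out. Each is written 5′ to 3′ on the strand of its gene, with the core in capitals.
GCLM, chr1:93909431-93909504, minus strand: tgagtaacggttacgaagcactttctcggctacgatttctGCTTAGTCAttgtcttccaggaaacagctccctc
TXNRD1 first start, chr12:104215640-104215728, plus strand: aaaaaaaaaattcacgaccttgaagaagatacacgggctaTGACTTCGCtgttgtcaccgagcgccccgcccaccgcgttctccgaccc
TXNRD1 second start, chr12:104286890-104286978, plus strand: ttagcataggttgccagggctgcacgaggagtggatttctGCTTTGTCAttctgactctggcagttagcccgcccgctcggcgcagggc
ME1, chr6:83431140-83431228, minus strand: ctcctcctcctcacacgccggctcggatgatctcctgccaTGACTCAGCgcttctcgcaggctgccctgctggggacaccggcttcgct
The copies of GCLM and of the second TXNRD1 start are read on the opposite strand, as TGACTAAGC and TGACAAAGC. The GCLM copy lies 26 to 34 bases before the start and the ME1 copy 129 to 137 bases before it. A match describes the letters only and does not show that NRF2 is bound there.

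Per kilobase of transcript, which allows levels to be compared between genes, NFE2L2 was the highest member in untreated cells at 103.01 ± 0.944 CPM per kb (SD, n = 3). TXNRD1 followed at 93.2 ± 1.94, HMOX1 at 53.3 ± 2.46, GCLM at 33.3 ± 1.23 and ME1 at 22.2 ± 1.05 CPM per kb. GCLC stood at 13.1 ± 0.475, OSGIN1 at 6.66 ± 0.326 and SLC7A11 at 2.05 ± 0.110 CPM per kb, and no neighbours in this order overlapped. Each length is that of 1 canonical transcript per gene. The SDs and the overlaps do not cover the error of that choice, so the order between genes is approximate. The order changed after treatment. In GO-treated cells TXNRD1 was first at 59.2 ± 14.2 CPM per kb, overlapping NFE2L2 at 48.2 ± 4.91, and OSGIN1 at 12.6 ± 2.69 overlapped both GCLM and ME1. After GO-Rg3-DOX, TXNRD1 at 83.7 ± 11.7 CPM per kb stood above NFE2L2 at 31.3 ± 1.30, and HMOX1 at 23.0 ± 3.18 overlapped ME1 at 21.4 ± 1.49.

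SRXN1, which encodes the sulfiredoxin that repairs overoxidised peroxiredoxins, is not assessed. Its row held 0 to 3 counts in each sample, 12 counts in all, and it did not enter the tests. On GRCh37 the gene lies on chromosome 20 from 627259 to 633844, and 90.7% of its exonic bases are shared on the same strand with a readthrough gene, ENSG00000270299, whose row held 0 to 13 counts. Whether the overlap lowered its counts was not tested, and how the counting treated shared reads is not given in the sources used here. All counts of members below are therefore of the other 8, all of which passed the filter on low counts.

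In cells treated with GO, 5 of the 8 tested members fell, 2 rose and 1 did not pass the test. Over all genes tested, 15.4% fell and 12.1% rose in this comparison. NFE2L2, GCLM and SLC7A11 passed the fold threshold, against 6.47% of all genes, and the median log2 fold change of the members was -0.61 beside 0.01 for all genes. The 2 members that rose were SLC7A11, the cystine importer, and OSGIN1, an oxidative stress-induced growth inhibitor. Those that fell were NFE2L2 itself, both subunits of the enzyme that starts glutathione synthesis, thioredoxin reductase and malic enzyme.

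NFE2L2 lies on chromosome 2 from 178083395 to 178257484. Its level was 250.5, 254.6 and 250.7 CPM in the untreated samples and 106.3, 130.2 and 117.04 CPM after GO, a log2 fold change of -1.10 (SE 0.10, adjusted p = 2.4e-06). After GO-Rg3 it read 176.6, 215.6 and 202.2 CPM, and after GO-Rg3-DOX 73.5, 76.4 and 79.8 CPM. The 4 groups did not overlap for this gene, with untreated cells highest and GO-Rg3-DOX lowest. The log2 fold change after GO-Rg3-DOX was -1.72 (SE 0.10, adjusted p = 2.0e-09), and after GO-Rg3 it was -0.35 (95% confidence interval -0.56 to -0.14, adjusted p = 0.099), which did not pass the test. An antisense transcript shares 7.77% of its exonic bases.

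GCLM encodes the modifier subunit of glutamate-cysteine ligase, the rate-limiting enzyme of glutathione synthesis, and lies on chromosome 1 from 94350755 to 94375012. Its levels were 164.3, 167.4 and 155.8 CPM in untreated samples, 60.9, 87.5 and 84.4 CPM after GO, 139.9, 164.7 and 153.4 CPM after GO-Rg3 and 84.7, 83.6 and 95.2 CPM after GO-Rg3-DOX. Untreated and GO-Rg3 samples overlapped, and all samples of the other groups lay below them. The log2 fold changes were -1.06 (SE 0.12, adjusted p = 2.0e-05) after GO and -0.89 (SE 0.12, adjusted p = 1.4e-05) after GO-Rg3-DOX. GCLC, the catalytic subunit on chromosome 6 from 53362139 to 53481768, read 49.1, 51.4 and 47.9 CPM in untreated samples and 27.2, 37.2 and 35.9 CPM after GO. After GO-Rg3 it read 39.8, 50.9 and 46.9 CPM and after GO-Rg3-DOX 24.0, 28.9 and 29.5 CPM. Both subunits were thus lowest in the groups treated with GO and GO-Rg3-DOX, with log2 fold changes for GCLC of -0.56 (SE 0.13, adjusted p = 0.0031) and -0.85 (SE 0.13, adjusted p = 4.0e-05). The GCLC call after GO was lost without untreated replicate 1 (-0.57, adjusted p = 0.011) or untreated replicate 2 (-0.53, adjusted p = 0.015). An antisense transcript shares 6.66% of the exonic bases of GCLC.

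SLC7A11, the light chain of the cystine-glutamate exchanger that supplies cysteine for glutathione, lies on chromosome 4 from 139085251 to 139163503. An antisense transcript shares 8.97% of the exonic bases of SLC7A11. SLC7A11 read 19.3, 20.9 and 18.9 CPM in untreated samples, 39.6, 52.9 and 46.2 CPM after GO, 23.5, 30.0 and 25.2 CPM after GO-Rg3 and 13.9, 13.5 and 13.0 CPM after GO-Rg3-DOX. No pair of groups overlapped, and GO-treated samples were the highest. It rose after GO by a log2 fold change of 1.23 (SE 0.12, adjusted p = 5.1e-06), 2.35 times the untreated level, while GCLM and GCLC fell in the same samples. With GO-Rg3-DOX the log2 fold change was -0.55 (SE 0.12, adjusted p = 0.0012), and an offset for GC content, described below, turned it to 0.12 (adjusted p = 0.23). The value after GO-Rg3, 0.41 (95% confidence interval 0.15 to 0.67, adjusted p = 0.11), did not pass the test.

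TXNRD1, cytosolic thioredoxin reductase, lies on chromosome 12 from 104609557 to 104744085. Its levels were 368.4, 355.7 and 355.3 CPM in untreated samples, 166.1, 269.4 and 249.7 CPM after GO, 300.4, 359.7 and 325.5 CPM after GO-Rg3 and 275.4, 328.9 and 365.3 CPM after GO-Rg3-DOX. GO-treated samples lay below all samples of the other groups, and the other 3 groups overlapped. The log2 fold change after GO was -0.66 (SE 0.15, adjusted p = 0.0031). That call was lost when any 1 untreated sample was left out, with adjusted p = 0.013, 0.011 and 0.011 without replicates 1, 2 and 3, and when only the 6 samples compared were fitted (adjusted p = 0.013). ME1, the cytosolic malic enzyme that makes NADPH, lies on chromosome 6 from 83920121 to 84140770. It read 73.3, 78.1 and 71.2 CPM in untreated samples, 33.3, 45.1 and 40.2 CPM after GO, 63.4, 74.9 and 69.3 CPM after GO-Rg3 and 68.7, 68.6 and 77.2 CPM after GO-Rg3-DOX. It too was low in GO-treated samples alone of the 4 groups, with a log2 fold change of -0.91 (SE 0.11, adjusted p = 3.4e-05). After GO-Rg3-DOX neither gene passed the test, with log2 fold changes of -0.15 (95% confidence interval -0.48 to 0.17) for TXNRD1 and -0.05 (-0.29 to 0.19) for ME1.

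HMOX1 encodes heme oxygenase 1, which breaks down heme and is often the most inducible gene of this system. On chromosome 22 from 35776354 to 35790207, it read 85.6, 78.4 and 84.3 CPM in untreated samples and 68.1, 62.6 and 61.5 CPM after GO. After GO-Rg3 it read 83.4, 59.4 and 75.6 CPM and after GO-Rg3-DOX 41.5, 32.8 and 33.1 CPM. No treatment had a mean above that of untreated cells, and the GO-Rg3-DOX samples lay below all others. The log2 fold change was -1.21 (SE 0.13, adjusted p = 7.7e-07) after GO-Rg3-DOX. After GO it was -0.37 (SE 0.12, adjusted p = 0.027) and did not pass, although the groups did not overlap; over 22 other settings the adjusted p ranged from 1.8e-05 to 0.090, and 7 of them passed.

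OSGIN1, on chromosome 16 from 83964916 to 83999937, read 13.5, 12.3 and 12.6 CPM in untreated samples, 30.1, 21.6 and 20.8 CPM after GO, 22.0, 9.48 and 13.8 CPM after GO-Rg3 and 3.71, 4.17 and 3.97 CPM after GO-Rg3-DOX. It was highest with GO and lowest with GO-Rg3-DOX, and its GO-Rg3 samples spread across both sides of the untreated ones. The log2 fold changes were 0.91 (SE 0.22, adjusted p = 0.0044) after GO and -1.69 (SE 0.25, adjusted p = 2.2e-05) after GO-Rg3-DOX. The rise after GO was no longer called without GO replicate 1 (0.73, adjusted p = 0.019), which is also the library with the largest mitochondrial share, or without untreated replicates 1, 2 or 3 (adjusted p = 0.014, 0.019 and 0.018). With library totals alone as the scaling it was 0.77 (adjusted p = 0.011).

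**Figure D1:**
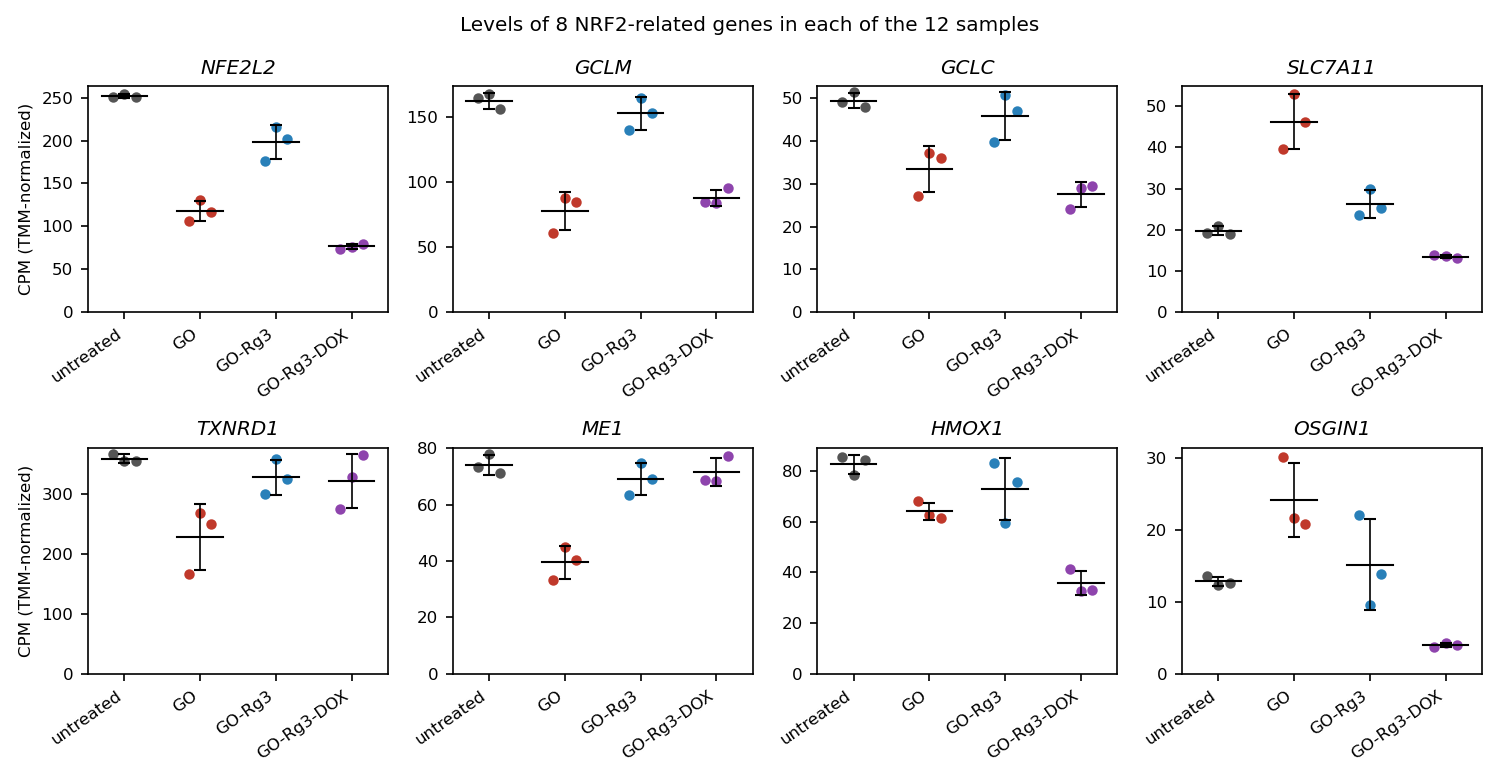
Level of each of the 8 tested genes (y axis, TMM-normalized CPM, starting at 0) in each of the 4 groups (x axis). Points are the 3 samples of a group in the order of replicate 1 to 3, the horizontal line is their mean and the error bar is 1 SD; SLC7A11 and OSGIN1 stand above the untreated samples after GO, whereas NFE2L2 steps down to 73.5 to 79.8 CPM after GO-Rg3-DOX.

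GO replicate 1 was the lowest of its group for NFE2L2, GCLM, GCLC, SLC7A11, TXNRD1 and ME1 and the highest for HMOX1 and OSGIN1. Without it, 5 members still fell after GO, 1 rose instead of 2 and 2 passed the fold threshold instead of 3. The part of the mitochondrial share in these results was tested only by removing mitochondrially encoded genes before scaling, and no member's call then changed in any of the 4 comparisons.

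With GO-Rg3 at the same stated dose as GO, 0 of the 8 tested members rose and 0 fell against untreated cells by edgeR's test. DESeq2 gave the same counts of 0 and 0. Over all genes tested, 0.0585% rose, 0.105% fell and 0.0585% passed the fold threshold, so few calls were made anywhere in this comparison. At an unadjusted p below 0.05, 1 member was higher, SLC7A11, and 1 was lower, NFE2L2, and these were also the 2 members whose groups did not overlap. Shares over all genes are not given for an unadjusted p, for DESeq2 or for groups without overlap, here or below. Counts by those measures therefore cannot be set against all genes. The median log2 fold change of the members was -0.11. For the other 6, the 95% confidence intervals of the log2 fold change reach as low as -0.45 for HMOX1 and TXNRD1 and as high as 0.72 for OSGIN1, so changes of that size lie within the error of these samples.

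GO-Rg3 was also set against GO directly, which compares flakes with and without bound saponin at the same stated dose. The labels do not say whether the GO-Rg3 dose counts the flakes alone or the whole conjugate. The conjugate was made in sulfuric acid, and the paper reports that its flakes were larger, thicker and less negatively charged than GO. The flakes of the groups therefore differ in these properties and in their preparation as well as in the saponin. Of the 8 members, 3 rose and 1 fell, where 7.33% of all genes rose and 6.25% fell. GCLM rose by a log2 fold change of 0.98 (SE 0.12, adjusted p = 9.1e-05), ME1 by 0.81 (SE 0.11, adjusted p = 0.00022) and NFE2L2 by 0.75 (SE 0.10, adjusted p = 0.00013). SLC7A11 fell by 0.82 on the log2 scale (SE 0.12, adjusted p = 0.00030); with only the 6 samples compared, its adjusted p was 0.010 and just missed the threshold. No member passed the fold threshold, which 2.77% of all genes did, and DESeq2 also gave 0. An unadjusted p below 0.05 was found for 7 members, a count without a share over all genes beside it. GCLC (0.45, 95% confidence interval 0.18 to 0.73), TXNRD1 (0.52, 0.20 to 0.85), HMOX1 (0.18, -0.08 to 0.45) and OSGIN1 (-0.67, -1.14 to -0.20) did not pass. Without GO-Rg3 replicate 1, which had the highest OSGIN1 of its group, OSGIN1 fell by 1.04 (adjusted p = 0.000828) and GCLC rose by 0.55 (adjusted p = 0.0067). This comparison shares the GO samples with that of GO against untreated cells.

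After GO-Rg3-DOX, 6 of the 8 tested members fell and 0 rose by edgeR's test; DESeq2 gave 6 and 0, and 0 members were higher at an unadjusted p below 0.05. This treatment moved much of the transcriptome, since 30.5% of all genes fell, 25.5% rose and 30.8% passed the fold threshold. NFE2L2, OSGIN1 and HMOX1 passed the fold threshold, and the median of the members was -0.87 beside -0.06 for all genes. NFE2L2 was at 0.304 times and OSGIN1 at 0.309 times the untreated level. The members that fell had untreated levels from 12.8 CPM for OSGIN1 to 252.0 CPM for NFE2L2. Scaled by library totals alone, 5 members rather than 3 passed the fold threshold, in a fit where the median of all genes shifted to -0.47.

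**Figure D2:**
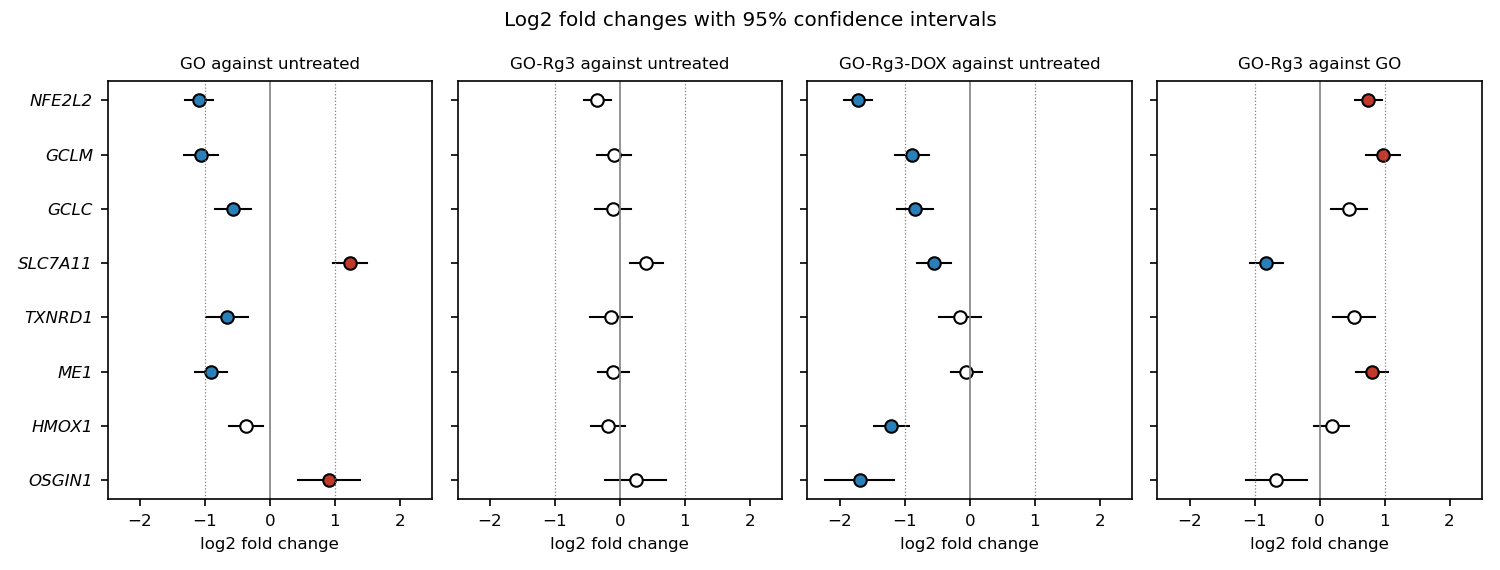
Log2 fold change (x axis) of the 8 tested genes (y axis) in the 4 comparisons. Points are estimates of edgeR's model with 95% confidence intervals as bars, red where a gene rose and blue where it fell at an adjusted p below 0.01, white where it did not pass; dotted lines mark a log2 fold change of 1 in either direction. All 8 points are white for GO-Rg3 against untreated cells, and 6 are blue and none red for GO-Rg3-DOX.

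The members were then set beside 40 other NRF2 target genes listed by function, all of which entered the tests. After GO, 14 of the 40 fell and 1 rose (15.4% and 12.1% of all genes), with a median log2 fold change of -0.32. Of 12 genes of glutathione use and export, 6 fell, as did 6 of 12 that reduce or conjugate quinones and carbonyls. Of 3 thioredoxin genes 1 fell, and the median log2 fold change of that class was -0.36, beside -0.35 for the glutathione genes. Of 5 genes of heme and iron handling 0 fell, with a median of -0.10. NQO1, the quinone reductase that is a widely used marker of NRF2 activity, read 514.3, 495.4 and 498.9 CPM in untreated samples and 312.2, 307.4 and 279.9 CPM after GO, a log2 fold change of -0.75 (SE 0.09, adjusted p = 1.9e-05). The gene that rose was EPHX1, microsomal epoxide hydrolase (0.75, SE 0.12, adjusted p = 0.00028). After GO-Rg3, 0 of the 40 rose and 0 fell by edgeR (0.0585% and 0.105% of all genes), and DESeq2 called 4 lower and 0 higher. At an unadjusted p below 0.05, 16 were lower and 0 higher. No share over all genes stands beside the DESeq2 and unadjusted counts, so they are not read as a result about these targets. The median was -0.22, and NQO1 stood at 374.5, 414.0 and 411.2 CPM, below all untreated samples (-0.33, adjusted p = 0.073). Against GO, 5 of the 40 rose and 1 fell in GO-Rg3, where 7.33% of all genes rose and 6.25% fell, and over the other settings 1 to 9 rose, with 9 by DESeq2. NQO1 was among those that rose (0.42, SE 0.09, adjusted p = 0.0030).

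After GO-Rg3-DOX, 22 of the 40 other targets rose and 1, UGDH, fell, where 25.5% of all genes rose and 30.5% fell, and the median log2 fold change of the 40 was 0.61. Of the 40, 7 passed the fold threshold, all upward, a smaller share than the 30.8% of all genes that did so in either direction. Over the other settings 8 to 31 rose, with 28 by DESeq2. By class, 7 of 12 glutathione genes, 3 of 5 genes of heme and iron handling and 1 of 3 thioredoxin genes rose, and 4 of 12 quinone and carbonyl genes rose and 1 fell. EPHX1 read 40.8, 40.6 and 42.5 CPM in untreated samples and 151.6, 125.9 and 128.8 CPM after GO-Rg3-DOX (1.71, SE 0.13, adjusted p = 1.9e-08). GGT1, a gamma-glutamyltransferase that breaks down extracellular glutathione, rose from 24.1 to 58.2 CPM on average (1.27, SE 0.16, adjusted p = 4.3e-06). The ferritin chains FTH1 (1.28, adjusted p = 0.00090) and FTL (1.22, adjusted p = 4.9e-05) rose as well, but both have many processed pseudogenes, so their counts are uncertain. CABYR passed at under 1 CPM, with 12 to 14 counts per library after GO-Rg3-DOX and 0 to 5 in all others, so it entered the tests only through the group where it is high. Without it, 21 of 39 rose and 6 passed the fold threshold. NQO1 read 575.3, 566.9 and 608.9 CPM, above the untreated samples, but did not pass (0.22, adjusted p = 0.038).

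These counts depended on the scaling. With library totals alone, 8 of the 40 other targets rose and 4 fell after GO-Rg3-DOX, instead of 22 and 1. In that fit 2152 of the 17092 genes tested rose and 7293 fell, instead of 4350 and 5214. Of all calls in the comparison 22.8% were upward, instead of 45.5%. In such fits the median over all genes moved to -0.11 for GO and to 0.12 for GO-Rg3 against GO on the log2 scale. For GO the share of upward calls moved from 44.01% to 30.6%, for GO-Rg3 from 35.7% to 16.7% and for GO-Rg3 against GO from 54.0% to 71.2%. The shares for GO-Rg3 rest on few calls, 10 upward and 18 downward in the main fit and 5 and 25 with library totals alone. Hepatocyte markers moved with the groups too. The summed level of the 10, most of it from AFP and ALB, was 24376 to 24515 CPM in untreated samples, 15697 to 18541 after GO, 18837 to 22476 after GO-Rg3 and 32857 to 37595 after GO-Rg3-DOX. Single markers did not all follow the sum. After GO, ALB (-0.67), AFP (-1.07) and TF (-0.40) fell, and APOA2, TTR and FGB were lower without passing. APOB (0.37), SERPINA1 (0.34) and APOA1 (0.09) were higher without passing. HNF4A, a hepatocyte transcription factor, rose after GO (0.63, adjusted p = 0.00056) and fell after GO-Rg3-DOX (-1.02, adjusted p = 1.8e-06). Of the other cell type markers above 1 CPM, PDGFRB rose from 2.46 to 7.01, CD14 from 1.25 to 3.28 and COL3A1 from 0.881 to 2.29 CPM on average after GO-Rg3-DOX, and the summed level of the 4 fibroblast markers went from 2.94 to 3.93 CPM in untreated samples to 9.13 to 11.5 CPM. PECAM1 and HBB were at 0 in every sample. The part of these markers in the results was not tested.

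**Figure D3:**
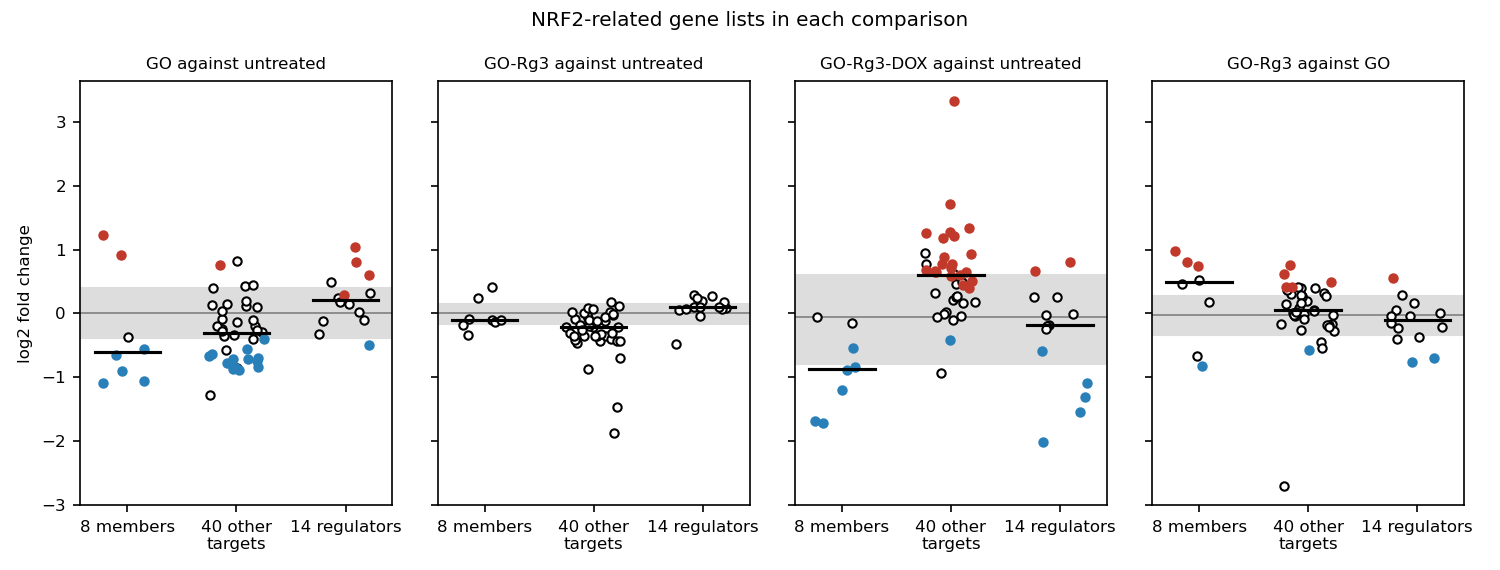
Log2 fold change (y axis) of the 8 members, 40 other NRF2 targets and 14 regulators (x axis, points spread sideways for visibility) in the 4 comparisons. Red points rose and blue points fell at an adjusted p below 0.01, white points did not pass, black bars are list medians, the grey band is the middle 50% of all genes tested and the grey line their median. After GO-Rg3-DOX the median of the members is -0.87 and that of the other targets 0.61.

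Among 14 regulators and partners of NRF2, 4 rose and 1 fell after GO, where 12.1% and 15.4% of all genes did, and over the other settings 2 to 6 rose. NFE2L1, a related factor that controls proteasome genes, rose from 308.4, 281.5 and 289.6 CPM to 495.3, 514.1 and 528.6 CPM (0.81, SE 0.10, adjusted p = 2.7e-05). BACH2, a repressor related to BACH1, rose from a low level of 2.85 to 5.85 CPM and passed the fold threshold (1.04, SE 0.13, adjusted p = 3.9e-05). The small MAF gene MAFF and NFE2L3 also rose, and CUL3, the scaffold of the ligase that degrades NRF2, fell (-0.50, SE 0.09, adjusted p = 0.00055). KEAP1 read 96.5, 88.6 and 90.3 CPM in untreated samples and 76.2, 72.7 and 70.9 CPM after GO, without overlap but without passing (-0.33, adjusted p = 0.039). BACH1 had a log2 fold change of 0.03 (adjusted p = 0.91) and overlapping groups.

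After GO-Rg3, 0 of the 14 rose and 0 fell by edgeR, where only 0.0585% and 0.105% of all genes did. At an unadjusted p below 0.05, 1 was higher and 1 lower, and DESeq2 called 1 higher and 0 lower, both without a share over all genes beside them. After GO-Rg3-DOX, 2 of the 14 rose, where 25.5% of all genes did. In the same comparison 5 fell and 4 passed the fold threshold, which lies near the shares over all genes of 30.5% and 30.8%. Over the other settings 4 to 8 fell. KEAP1 was at 21.5, 21.5 and 24.9 CPM in that group, a log2 fold change of -2.02 (SE 0.13, adjusted p = 3.4e-09). BACH1 read 38.4, 37.6 and 35.5 CPM in untreated samples and 10.2, 12.7 and 15.1 CPM (-1.55, SE 0.17, adjusted p = 1.2e-06). BTRC, the beta-TrCP subunit of a second ligase for NRF2 (-1.31, adjusted p = 9.6e-08), and CUL3 (-1.10, adjusted p = 7.2e-08) passed the fold threshold as well. The transcript of NRF2 fell in the same samples as those of its inhibitor KEAP1, of 2 ligase components and of the competing repressor BACH1. So did 30.5% of all genes, so these falls together are not read as a result about the regulators. MAFF and NFE2L1 rose after GO-Rg3-DOX as after GO, by 0.66 and 0.81. In GO-Rg3 against GO, CUL3 rose (0.55) and BACH2 (-0.76) and NFE2L1 (-0.71) fell, with adjusted p from 0.00018 to 0.00092.

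Base composition varied with the response of genes in general. Across 16622 genes with a known GC content (97.3% of those tested), Spearman's rho between the GC content of the transcript and the log2 fold change was 0.44 for GO, 0.20 for GO-Rg3 and 0.37 for GO-Rg3-DOX against untreated cells and -0.44 for GO-Rg3 against GO. These are descriptions over genes measured in the same libraries. NFE2L2 (42.1% GC), GCLM (37.3%), GCLC (44.2%), TXNRD1 (43.8%) and ME1 (39.3%), which fell after GO, were below 45% GC. SLC7A11, which rose, had the lowest GC content of the members at 35.4%, and HMOX1 (57.7%) and OSGIN1 (64.7%) the highest.

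With a loess offset for GC content, the directions after GO were kept for all 8 members. GCLM was at -0.75, NFE2L2 at -0.90, ME1 at -0.63, OSGIN1 at 0.47 and SLC7A11 at 1.60, so that 1 member instead of 3 passed the fold threshold, and HMOX1 passed the test at -0.62 (adjusted p = 2.7e-05). After GO-Rg3-DOX the same offset left NFE2L2 at -1.34, HMOX1 at -1.51 and OSGIN1 at -2.32, moved GCLM to -0.30 and GCLC to -0.57, and made ME1 a gene that rose (0.46, adjusted p = 2.4e-05). TXNRD1 moved to 0.14 (adjusted p = 0.33). The falls of HMOX1 and OSGIN1 were thus larger with the offset, that of NFE2L2 was smaller but past the fold threshold, and that of SLC7A11 was no longer called.

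**Figure D4:**
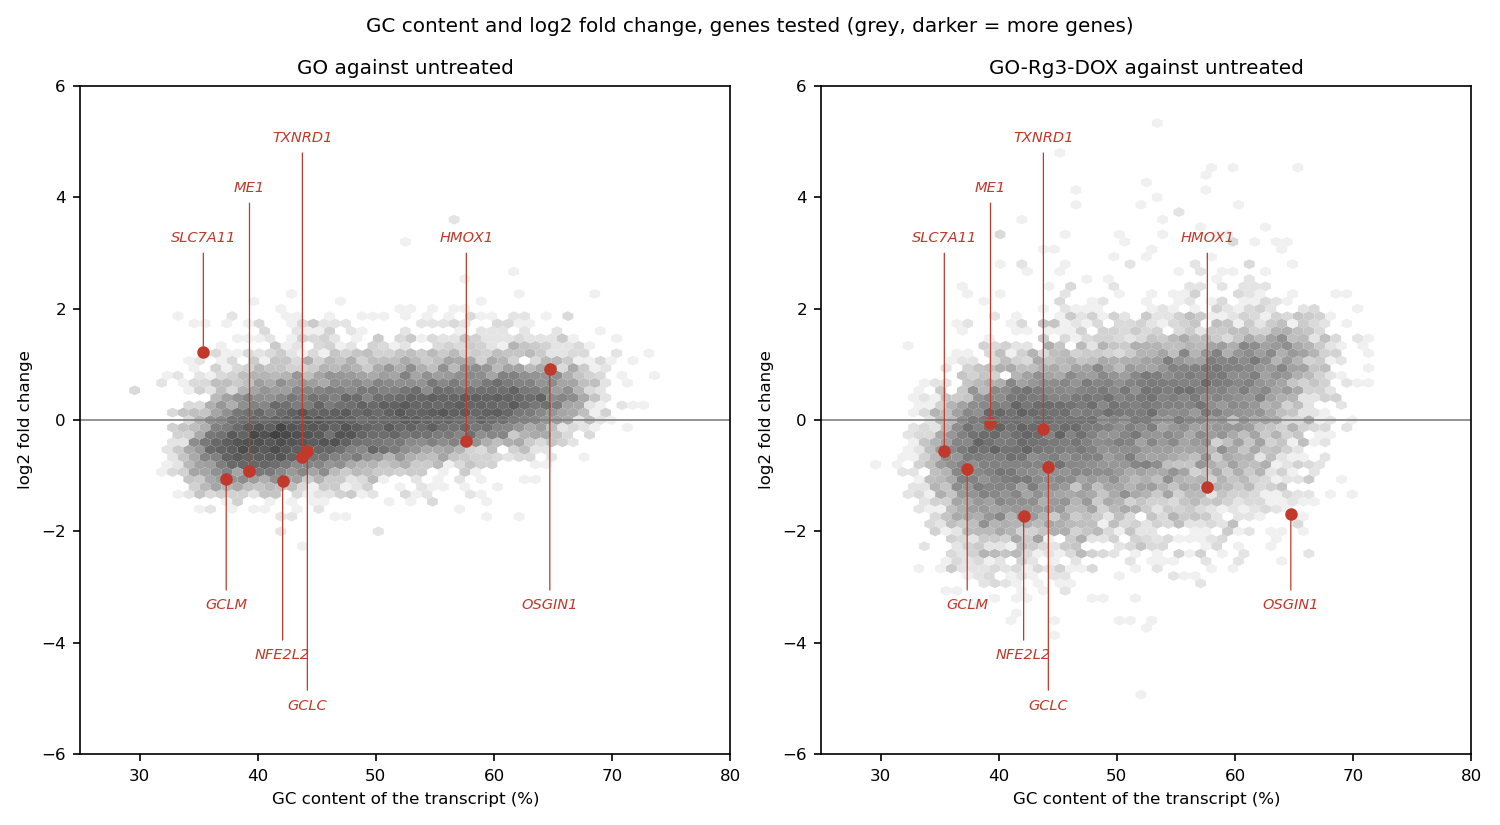
GC content of the transcript (x axis, %) and log2 fold change (y axis) of 16622 genes after GO (left) and GO-Rg3-DOX (right). Grey hexagons hold genes, darker for more, red points are the 8 members, and 5 and 65 genes lie beyond the axes; SLC7A11 (1.23 at 35.4% GC) lies above most genes of like GC content after GO, and OSGIN1 (-1.69 at 64.7%) and HMOX1 (-1.21 at 57.7%) lie below most after GO-Rg3-DOX.

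The pattern of each member over the 3 treatments was compared with that of 8961 genes at a mean of 10 CPM or more, by the Euclidean distance between their 3 log2 fold changes against untreated cells. TXNRD1 and ME1 were each other's nearest member (distance 0.27), as were GCLC and HMOX1 (0.42) and SLC7A11 and OSGIN1 (1.20). GCLM was nearest to GCLC (0.50) and NFE2L2 to GCLM (0.87). Other genes lay closer in every case, from 92 genes nearer to ME1 than TXNRD1 was to 1235 nearer to SLC7A11 than OSGIN1 was. The nearest genes of all were ZHX1 for GCLM, RPAP2 for GCLC, PLSCR1 for HMOX1, ERCC8 for TXNRD1, RP11-395B7.7 for SLC7A11, KRTCAP2 for OSGIN1, ABCC2 for ME1 and PCGF6 for NFE2L2, at distances of 0.03 to 0.15. ABCC2, a conjugate exporter on the list of other targets, had log2 fold changes of -0.85, -0.09 and -0.05 where ME1 had -0.91, -0.10 and -0.05.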

How the data were processed

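The authors made stranded mRNA libraries from 12 Huh7 samples, ran NGI-RNAseq against GRCh37 and used featureCounts for reads per gene. The values deposited by the authors are raw counts, whole numbers without normalization. The annotation release, the strand setting and the versions of the alignment and counting tools are not given in the sources used here, so antisense and overlapping genes, pseudogenes and near-identical families are uncertain. Samples were grouped by their labels.

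Genes that reached 10 counts in 3 samples or more (17092) were fitted with edgeR 4.0.16 in R 4.3.3 (TMM scaling, quasi-likelihood test, all 12 samples in one model, no replicate block) and adjusted by the Benjamini-Hochberg procedure. The study's filter and thresholds were kept; it used DESeq2. Replicates of a group differed by more than sampling noise. The fit was tested on simulated data.

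The members and gene lists were chosen with earlier results of these data known. All 9 members are named, and from the 40 other targets and 14 regulators those past an adjusted p of 0.01 and an absolute log2 fold change of 1, at most 6 per list and comparison, plus NQO1, KEAP1 and BACH1, apart from an item not reported here; other list genes named (UGDH, MAFF, NFE2L1, NFE2L3, ABCC2, and EPHX1, CUL3 and BACH2 in further comparisons) were chosen after their values were seen. Where a symbol had several rows, the row with counts was used. Lengths, GC content and positions came from canonical transcripts of an annotation lifted to GRCh37, and promoters from RefSeq on GRCh38.p14.

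Alternatives were RLE scaling, library totals alone, removal of mitochondrially encoded genes, other count filters, DESeq2 1.42.0 (Wald test), the replicate block, a loess offset of span 0.5 for GC content, alone and together with that block, a fit of the 6 samples of a comparison by themselves, the omission of 1 sample at a time, and an adjusted p threshold of 0.05. Tables and plots were made with Python 3.11.15, pandas 2.3.3 and matplotlib 3.10.9. Intervals are 95% confidence intervals of the log2 fold change.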

Additional observations from a re-analysis of the deposited data

How the results depend on the processing

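Over 22 settings, the 8 members' log2 fold changes in the 4 comparisons kept direction and side of the threshold in 658 values. With the direction kept, 25 newly passed and 12 no longer passed. Another 9 changed sign and were counted so whatever their adjusted p. Among these, after GO-Rg3-DOX with the GC content offset, ME1 newly passed and SLC7A11 no longer passed. Removing mitochondrially encoded genes or requiring 10 counts in every sample changed no member's call. The cause of the changes below was not tested.

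With library totals alone, 1 member rose after GO (2 as reported), 5 passed the fold threshold after GO-Rg3-DOX (3) and 1 did in GO-Rg3 against GO (0). With the GC content offset, alone or with the replicate block, 1 member passed the fold threshold after GO (3), 1 rose after GO-Rg3 (0), 1 rose after GO-Rg3-DOX (0) and 1 passed the fold threshold in GO-Rg3 against GO (0). The offset alone raised calls over all genes too. After GO-Rg3, 52 rose and 149 fell (10 and 18). Genes that rose numbered 5128 after GO-Rg3-DOX (4350) and 1821 in GO-Rg3 against GO (1253). All-gene counts past the fold threshold, or for the other settings below, are not given, so those member counts cannot be set against all genes. After GO-Rg3-DOX the offset turned TXNRD1 to 0.14 (0.13 with the block), SLC7A11 to 0.12 (0.12) and ME1 to 0.46 (0.46), and ME1 was 0.016 with RLE scaling and 0.016 with DESeq2. In GO-Rg3 against GO, 5 members rose (3) with no filter on low counts, with DESeq2, with the replicate block, with the GC content offset and at an adjusted p below 0.05, and 6 with offset and block. There 2 fell (1) with no filter, with the block and at an adjusted p below 0.05, and 0 in the fit of only the 6 samples compared, in which SLC7A11 missed the threshold.

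With 1 sample left out in turn, 1 to 2 members rose and 3 to 6 fell after GO; 3 fell without untreated replicate 1 or 2, and 1 rose without any one of the untreated samples or GO replicate 1. In GO-Rg3 against GO, 1 to 2 fell and 0 to 2 passed the fold threshold, both highest without GO-Rg3 replicate 1. OSGIN1 after GO-Rg3 ranged from -0.13 without GO-Rg3 replicate 1 to 0.48 without GO-Rg3 replicate 2.

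Samples carry the same replicate numbers in each group, but the numbers mark no stated batch. Deviations of same-numbered samples correlated at 0.14 on average (-0.03 to 0.37 over 18 pairs). Pairs with different numbers averaged -0.07 (-0.37 to 0.33 over 36 pairs), and 9 of 12 samples correlated best with their own number. Same-numbered samples thus tended to deviate together. The block is given as an alternative only because no batch is stated. By itself it moved the counts in GO-Rg3 against GO to 5 risen and 2 fallen, and HMOX1 after GO passed with it (-0.37, adjusted p = 0.0055). Depth limits SRXN1, which has no usable counts.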
